A study of Drosophila melanogaster with 4 samples.

Results

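The Hippo pathway is described here by 10 genes, chosen by symbol: the cadherin gene ft, the genes Mer, ex and kibra of the membrane complex, the kinase core genes hpo, sav, wts and mats, and the effector genes yki and sd. All 10 had a row in a table of 8806 genes and transposable element families. The RNA came from the Drosophila melanogaster cell line BG3, which was established from larval nervous tissue. The tested cells carried dsRNA against Cap-H2, a subunit of the chromosome-compacting complex condensin II, and the label calls their genotype CapH2 Knockdown. The control cells carried dsRNA against Brown, an eye pigment gene, and the label calls their genotype WT. In both groups 20 µg of dsRNA was given for 30 min in medium without serum, and cells then grew for 4 days in medium with serum and insulin. Each group held 2 libraries, and since nothing says that they came from separate cultures, the p-values reflect only how these libraries differ, which could be technical variation.

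The Hippo pathway limits organ growth. At the membrane the cadherin Fat and a complex of Merlin, Expanded and Kibra promote the activity of a kinase core, in which Hippo with its scaffold Salvador activates Warts with its cofactor Mats. Warts phosphorylates the coactivator Yorkie, which is then held in the cytoplasm, whereas unphosphorylated Yorkie enters the nucleus and drives transcription with the DNA-binding protein Scalloped. Because this control acts on proteins, transcript levels do not measure the activity of the pathway. The comparison asks how the transcripts of its parts differ after Cap-H2 knockdown.

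Reads on genes and element families ranged from 21539511 to 21935781 per library. Cap-H2 itself stood at 543 and 555 normalized reads in the knockdown libraries, against 880 and 873 in the control libraries, which is 62.7% of the control, so the knockdown was partial at the RNA level. Control library 1 stood farthest from the other libraries. The chi-square over degrees of freedom was 5.09 between it and control library 2, and 2.96 between the knockdown libraries. For each of the 10 genes the log2 fold change is therefore also given with libraries left out.

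None of the 10 genes passed the test. With limma, at a Benjamini-Hochberg adjusted p of 0.05 over 7690 tested rows, 0 of the 10 were called, against 0.39% of all tested rows (30 rows). In the 10 genes 0 had an unadjusted p under 0.05, against 8.13% of all tested rows. On recovered whole reads edgeR called 0 of them, against 0.364% of all tested rows, and DESeq2 also called 0, against 0.585%, although 6 of the 10 genes and 6112 of the 7690 rows had no adjusted p in DESeq2 and could not be called by it. Their log2 fold changes, knockdown over control, lay between -0.10 and 0.16, with a median of 0.01, against -0.00 over all tested rows. Of the 10 values 5 were positive, as were 49.9% over all tested rows, and 5 were negative, against 50.1%. Together the 10 genes took 0.0918% and 0.0900% of the reads in the knockdown libraries, against 0.0968% and 0.0913% in the control libraries. The median absolute log2 fold change was 0.057 among the 10 genes and 0.057 over all tested rows. It was 0.039 over the 2785 rows whose mean lay within the range of the 10 genes besides ft. The difference was not tested.

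**Figure D1:**
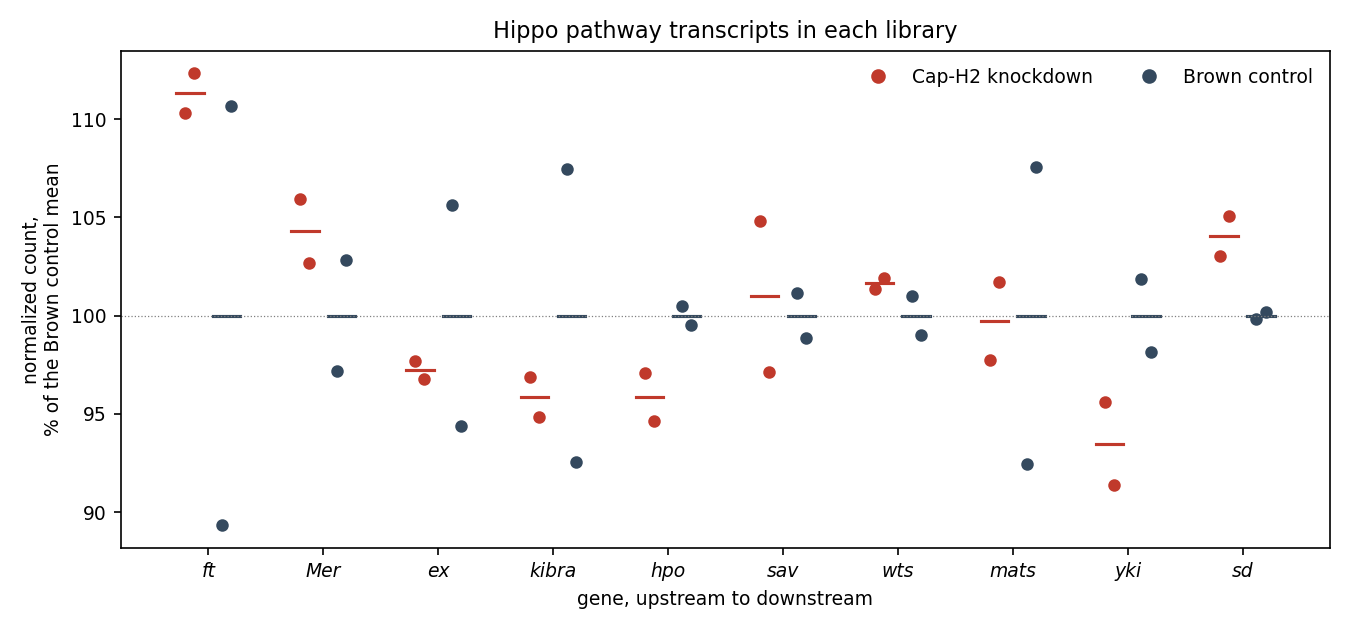
Normalized read count of each of the 10 genes (horizontal axis) in every library, as a percentage of the mean of the 2 control libraries (vertical axis). Points are libraries and short lines are group means, with the knockdown left of the control; the knockdown means lie between 93.5% for yki and 111% for ft.

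Levels set the frame for these differences. Divided by the length of all annotated exons, yki stood highest, with 783 and 749 normalized reads per kb in the knockdown libraries and 835 and 804 in the control libraries. Next in order came kibra, with a mean over the 4 libraries of 728 per kb, wts with 685, ex with 523, hpo with 512, mats with 483, Mer with 359, sd with 337 and sav with 329. The libraries of yki and kibra overlapped, as did those of kibra and wts. All libraries of wts stood above those of ex. Libraries of ex overlapped with those of hpo, and those of hpo with those of mats, all of which stood above Mer. Mer overlapped with sd, and sd with sav. These 9 genes therefore lay within a narrow band, from 49.8% for sav to 78.2% for yki when expressed as the share of the 7292 tested protein-coding genes with a lower level per kb.

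The gene ft was the exception, with 2.31 and 2.35 normalized reads per kb in the knockdown libraries, against 1.87 and 2.32 in the control libraries. Only 0.494% of the tested protein-coding genes were lower, and the mean of yki was 359 times that of ft. Tested rows were chosen by mean reads, not by level per kb, and ft passed with 16.852 kb of exons. Shorter genes at such a level per kb could miss the minimum, as did fj with a mean of 1.97 per kb. The share is therefore low in part through this choice of rows and does not place ft among all genes. The place of sd depends on which of its 22 annotated transcripts the cells make, which these gene-level counts do not show. With the longest transcript of 6.005 kb as its length, in place of 8.766 kb of joined exons, sd stood at 492 per kb, between hpo and mats.

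**Figure D2:**
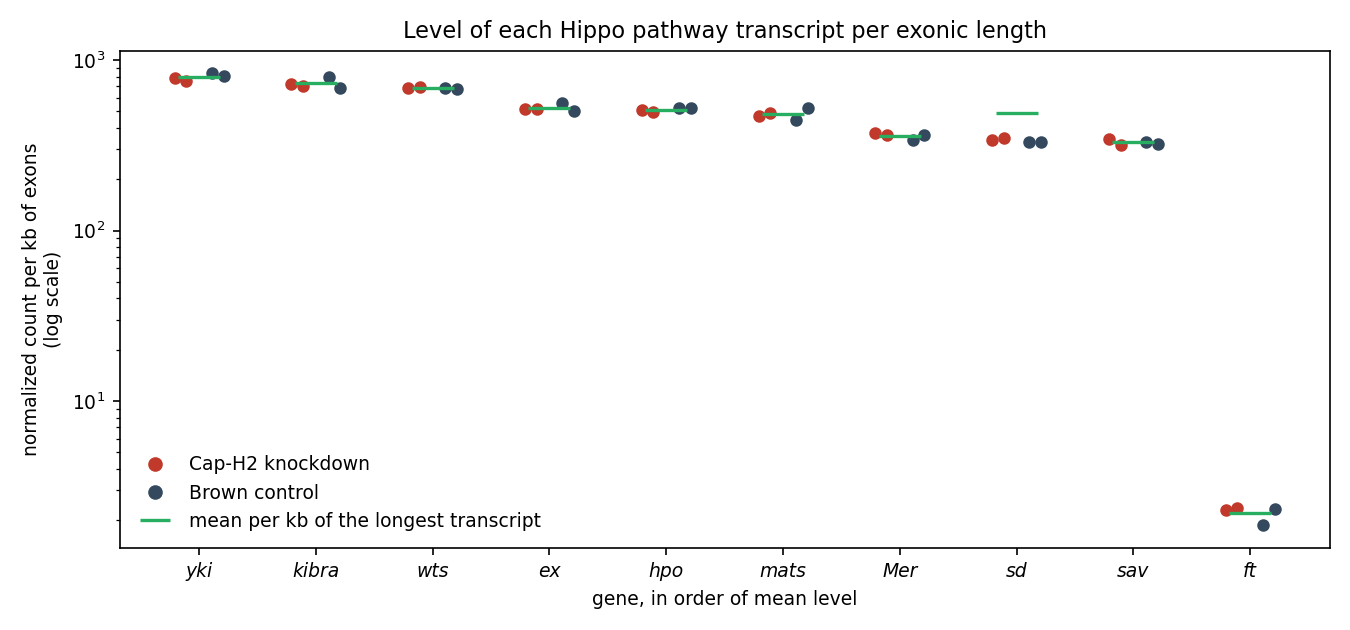
Normalized read count per kb of annotated exons (vertical axis, log scale) for the 10 genes in order of their mean level (horizontal axis). Points are libraries, with the knockdown left of the control, and green lines give the mean per kb of the longest transcript; 9 genes lie between 318 and 835 per kb and ft lies near 2.21.

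Among the upstream genes, ft encodes the large atypical cadherin that acts as a receptor at the cell surface (FBgn0001075, dm6 chromosome 2L, 4198404 to 4221796, minus strand). It had 38.9 and 39.6 normalized reads in the knockdown libraries, against 31.5 and 39.0 in the control libraries. Both knockdown values lay close to control library 2, and the groups overlapped. Its log2 fold change of 0.16 had a standard error of 0.25 and a 95% interval from -0.38 to 0.69 (limma adjusted p = 0.91), and it was 0.01 without control library 1 but 0.31 without control library 2. Recovered whole reads numbered 39 and 39 in the knockdown libraries and 32 and 39 in the control libraries. The exact Poisson interval at 95%, which covers counting error only, was 27.7 to 53.3 for 39 reads and 21.9 to 45.2 for 32 reads. At this depth a log2 change smaller than 1.21 could not have passed for ft, so no smaller difference was detectable.

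Mer encodes Merlin, a FERM-domain protein that links membrane and cytoskeleton (FBgn0086384, chromosome X, 19689697 to 19693500, minus strand). Its normalized reads were 1265 and 1226 in the knockdown libraries, against 1161 and 1228 in the control libraries. Knockdown library 1 was the highest and control library 1 the lowest, and knockdown library 2 and control library 2 were nearly equal. The log2 fold change was 0.06 (SE 0.05, limma adjusted p = 0.80), and leaving out a control library gave 0.02 (library 1) or 0.10 (library 2).

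The FERM-domain protein Expanded is encoded by ex, which is also a reported target of Yorkie (FBgn0004583, chromosome 2L, 431227 to 448701, plus strand). It had 3460 and 3427 normalized reads in the knockdown libraries, against 3740 and 3343 in the control libraries. The WW-domain protein Kibra is encoded by kibra, another reported target (FBgn0262127, chromosome 3R, 14697689 to 14724261, minus strand), with 4141 and 4056 in the knockdown libraries, against 4595 and 3956 in the control libraries. In both genes the 2 knockdown libraries lay between the control libraries, with control library 1 the highest of the 4. The log2 fold changes were -0.04 for ex (SE 0.05, limma adjusted p = 0.87) and -0.06 for kibra (SE 0.05, limma adjusted p = 0.82).

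For ex and kibra the direction was set by which control library was used. Without control library 1 the values turned to 0.04 for ex and 0.05 for kibra. With all 4 libraries the adjusted p of kibra ran from 0.63 (limma with the replicate block) to 0.996 (DESeq2). Without control library 2 the log2 fold changes were -0.12 for ex and -0.17 for kibra. In that fit control library 1 stands alone, is assumed to vary like the knockdown libraries, and the spread is pooled wholly over genes. Control library 2 minus control library 1 was -0.16 for ex and -0.22 for kibra on the log2 scale, in each case a wider gap than the one between the groups.

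In the kinase core, hpo encodes the Ste20-family kinase that gives the pathway its name (FBgn0261456, chromosome 2R, 19493996 to 19496856, minus strand). It had 1423 and 1387 normalized reads in the knockdown libraries, against 1473 and 1458 in the control libraries. Both knockdown libraries lay below both control libraries, and the log2 fold change was -0.06 (SE 0.05, 95% interval from -0.16 to 0.04, limma adjusted p = 0.78). When each library was left out in turn the value ranged from -0.08 to -0.04, and without overlap its sign could not turn. Its scaffold partner sav (FBgn0053193, chromosome 3R, 23058609 to 23061304, minus strand) had 767 and 711 in the knockdown libraries, against 740 and 723 in the control libraries. The control libraries of sav lay between the knockdown libraries, and the log2 fold change was 0.01 (SE 0.06, limma adjusted p = 0.98). Leaving out control library 1 gave 0.03 and leaving out knockdown library 2 gave 0.07, but the value turned to -0.00 when control library 2 was left out and to -0.04 when knockdown library 1 was.

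The NDR-family kinase Warts is encoded by wts (FBgn0011739, chromosome 3R, 30789625 to 30806619, minus strand), which had the smallest standard error of the 10 genes. It had 3996 and 4017 normalized reads in the knockdown libraries, against 3980 and 3903 in the control libraries. The knockdown libraries were both higher, but knockdown library 1 exceeded control library 1 by a small margin, and the log2 fold change was 0.02 (SE 0.03, 95% interval from -0.05 to 0.10, limma adjusted p = 0.90). It was 0.04 without control library 1, 0.01 without control library 2 and -0.00 with quantile normalization. The Mob-family cofactor of Warts, mats (FBgn0038965, chromosome 3R, 22421161 to 22423302, plus strand), had 811 and 844 in the knockdown libraries, against 767 and 892 in the control libraries. The knockdown libraries of mats lay between the control libraries, which were 0.22 apart on the log2 scale. The log2 fold change was -0.00 (SE 0.07, limma adjusted p = 1.00). Without control library 1 mats stood at -0.11, and without control library 2 at 0.11.

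At the output of the pathway, yki encodes the coactivator Yorkie (FBgn0034970, chromosome 2R, 24065975 to 24068485, minus strand). It had 1195 and 1142 normalized reads in the knockdown libraries, against 1273 and 1226 in the control libraries, that is 1168 ± 37.0 against 1250 ± 33.2 (SD, n = 2 each). Both knockdown libraries were below both control libraries, and the knockdown mean was 93.5% of the control mean. Of the 10 genes it had the smallest p, yet it ranked only 863 of 7690 rows. The log2 fold change was -0.10 (SE 0.05, 95% interval from -0.20 to 0.01, limma adjusted p = 0.65). It ranged from -0.13 to -0.06 when each library was left out in turn, and without overlap its sign could not turn.

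The TEAD-family transcription factor Scalloped, the DNA-binding partner of Yorkie, is encoded by sd (FBgn0003345, chromosome X, 15804370 to 15827682, plus strand). It had 2981 and 3041 normalized reads in the knockdown libraries, against 2889 and 2900 in the control libraries. Here both knockdown libraries were higher, the log2 fold change being 0.06 (SE 0.04, 95% interval from -0.02 to 0.13, limma adjusted p = 0.72). Values ran from 0.04 to 0.07 when each library was left out in turn, which without overlap could not turn the sign. Levels of sd over yki per kb, a ratio chosen after the values were seen and not tested, were 0.434 and 0.463 in the knockdown libraries, against 0.395 and 0.411 in the control libraries. With sd higher and yki lower, each without overlap, the groups could not overlap in this ratio, so it adds nothing to the values of the genes.

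In 4 of the 10 genes the groups did not overlap, with wts and sd higher and hpo and yki lower in the knockdown. That share was 40.0%, and it was 38.7% over all tested rows (19.2% higher and 19.5% lower), so it is close to the background. In 7 of the 10, every gene except hpo, yki and sd, the wider of the library gaps within a group exceeded the log2 fold change in size. That gap was between the control libraries for ft, Mer, ex, kibra, wts and mats. In sav it was between the knockdown libraries, with a log2 difference of -0.11.

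How small a change the test could have called differed between the genes. At the standard errors found, a log2 change of 0.16 would have passed for wts, 0.18 for sd, 0.22 for ex and hpo, 0.24 for kibra and yki and 0.25 for Mer. For sav the size was 0.30, for mats 0.33 and for ft 1.21. Apart from ft, these sizes correspond to increases from 12.1% for wts to 25.8% for mats. A smaller difference than these was not detectable as a call, and a p that misses the threshold does not show that a level was the same.

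**Figure D3:**
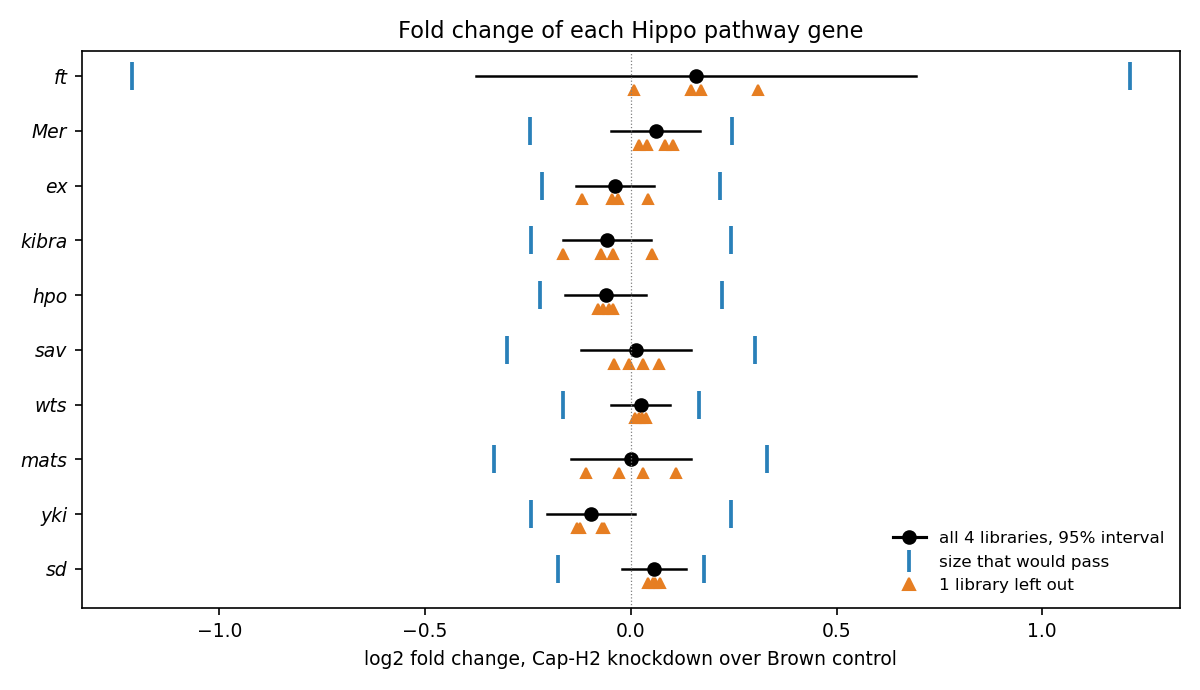
Log2 fold change of each gene, knockdown over control (horizontal axis), with genes from upstream at the top to downstream at the bottom. Black points and lines give the value and its 95% limma interval, blue bars the size that would have passed, and orange triangles the values with 1 library left out; every interval includes 0, and triangles of ex, kibra, sav and mats fall on both sides of it.

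In the authors' deposited table the unadjusted p of the 10 genes ran from 0.222 for yki to 0.971 for mats. Their adjusted p in the authors' deposited table was 0.999 for each.

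Parts of 3 genes share exons with a neighbour. Exons of ex share 448 of 6672 bp with crq on the opposite strand, and hpo shares 130 of 2804 bp with Rep on the opposite strand. On the same strand, sav shares 73 of 2235 bp with Ctns. None of these neighbours passed, with log2 fold changes of -0.01 for crq, -0.02 for Rep and 0.08 for Ctns. Without control library 1 those of crq and Ctns turned, to 0.0003 and -0.0049. The library kit was stranded, and no source used here states the strand setting of HTSeq.

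Beyond the 10 genes, 68 further genes of the pathway were examined in 6 lists, of which 64 had a row and 62 could be tested. None was called, against 0.39% of all tested rows, and 10 had an unadjusted p under 0.05, which is 16.1% of them against 8.13% of all tested rows. Their median log2 fold change was 0.02, with 40 positive and 22 negative. The value turned in 7 of the 62 without control library 1, and in 24 when any 1 library was left out. Groups did not overlap in 45.2% of them, against 38.7% of all tested rows.

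In the Fat and Dachsous branch ds, fj and dachs, named after their values were seen, were at low level. The cadherin gene ds, the ligand of Fat, had 3.99 and 2.03 normalized reads in the knockdown libraries, against 1.97 and 7.00 in the control libraries. The Golgi kinase gene fj had 7.98 and 6.09 in the knockdown libraries, against 6.89 and 7.00 in the control libraries. Both were below the minimum mean of 10 and were not tested. The unconventional myosin gene dachs had a mean of 9.40 per kb over the 4 libraries. In contrast Zyx, which encodes the LIM-domain protein Zyxin, and dco, the casein kinase gene, stood at 951 and 779 per kb, with log2 fold changes of -0.02 (SE 0.04) and 0.02 (SE 0.03). That of Zyx was -0.06 without control library 1 and 0.02 without control library 2. Of the 6 tested genes in this list 0 were called, 4 were positive and 2 negative, and the median was 0.02.

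Polarity, junction and spectrin genes gave 0 calls among 16, with 11 positive and 5 negative and a median log2 fold change of 0.04. The spectrin genes alpha-Spec and beta-Spec had the highest levels per kb, at 6007 and 2564, and log2 fold changes of 0.04 (SE 0.03, limma adjusted p = 0.77) and 0.08 (SE 0.03, limma adjusted p = 0.35). An unadjusted p under 0.05 was found for beta-Spec and for sdt, a partner of Crumbs, at -0.16 (SE 0.05, limma adjusted p = 0.34). Here sdt was named after its values were seen.

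Regulators of the Hpo-Wts core, which include Tao-family kinases and the STRIPAK phosphatase complex that acts on Hippo, gave 0 calls among 16. There were 8 positive and 8 negative values, a median of 0.00 and 0 genes with an unadjusted p under 0.05. The 2 highest in level per kb were mts, the catalytic subunit of protein phosphatase 2A, at 3671 and msn, a Ste20-family kinase gene, at 3171. Their log2 fold changes were -0.01 (SE 0.03) and -0.01 (SE 0.03), and turned to 0.01 for mts without control library 1 and to 0.01 for msn without knockdown library 1. Close relatives of Warts and Mats, the NDR kinase gene trc with fry, Mob2 and Mob3, also gave 0 calls among 4, with a median of 0.03. The highest in level were fry at 832 per kb and trc at 656, with log2 fold changes of 0.04 (SE 0.04) and 0.02 (SE 0.04), that of fry turning to -0.03 without control library 1. Mob2, named after its values were seen, had an unadjusted p under 0.05 at 0.10 (SE 0.05, limma adjusted p = 0.61).

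Levels of the partners of Yorkie and Scalloped ranged widely, down to 22.9 per kb for tsh, a zinc finger gene named here for that value. The genes 14-3-3epsilon and 14-3-3zeta, whose proteins bind phosphorylated Yorkie, stood at 10072 and 7345 per kb, with log2 fold changes of 0.04 (SE 0.03) and 0.03 (SE 0.03). Of 9 tested genes in this list 0 were called, 6 were positive and 3 negative, with a median of 0.03. An unadjusted p under 0.05 was found for Tgi, Wbp2 and Hipk, named after their values were seen. Tgi, which encodes a corepressor that binds Scalloped and Yorkie, had 942 and 891 normalized reads in the knockdown libraries, against 1104 and 976 in the control libraries. Its log2 fold change was -0.18 (SE 0.06, limma adjusted p = 0.40), and it stood at -0.09 without control library 1 but passed at -0.27 without control library 2 (limma adjusted p = 0.011). Wbp2, a coactivator gene, had 0.09 (SE 0.04, limma adjusted p = 0.55). Hipk, a kinase gene, had 0.08 (SE 0.04, limma adjusted p = 0.61), and passed at 0.16 without knockdown library 1 (limma adjusted p = 0.032) but stood at 0.01 without knockdown library 2. Its groups overlapped. Under the other alternatives run neither passed. No row was matched to vg, the wing partner of sd, or to ASPP, and neither was analysed here.

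Reported targets of Yorkie gave 0 calls among the 14 tested, with 9 positive and 5 negative and a median log2 fold change of 0.05, and 3 of them are ex, kibra and Mer. Diap1, the inhibitor of apoptosis, was the highest in level at 2177 per kb. It had 6919 and 6812 normalized reads in the knockdown libraries, against 6872 and 6760 in the control libraries, and its log2 fold change was 0.01 (SE 0.03, limma adjusted p = 0.96), turning to -0.00 without control library 2 or knockdown library 1. E2f1, a cell cycle transcription factor gene, followed at 1547 per kb with 0.03 (SE 0.03, limma adjusted p = 0.82). As none was called, no movement of these targets was shown in either direction.

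In this list 4 of the 14 tested genes had an unadjusted p under 0.05, against 8.13% of all tested rows. They were named after their values were seen. Ser, which encodes the Notch ligand Serrate, had 842 and 868 normalized reads in the knockdown libraries, against 996 and 996 in the control libraries, giving -0.22 on the log2 scale (SE 0.05, limma adjusted p = 0.12). The glypican gene dlp had 1102 and 1035 in the knockdown libraries, against 938 and 910 in the control libraries, giving 0.21 (SE 0.06, limma adjusted p = 0.18). Another glypican gene, dally, had 0.12 (SE 0.04, limma adjusted p = 0.24), and the growth regulator gene Myc had 0.10 (SE 0.03, limma adjusted p = 0.34). In these 4 genes the groups did not overlap, as in 38.7% of all tested rows. This adds no support, since they were named for their small p. With the replicate number as a block Ser, dlp and dally passed, with limma adjusted p of 0.016, 0.021 and 0.040. In that fit 146 of the 7690 tested rows passed, against 30 without the block. The replicate numbers were not shown to pair the libraries (correlation of deviations -0.03). No row was matched to upd1 or to the bantam microRNA gene mir-ban, and neither was analysed here.

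**Figure D4:**
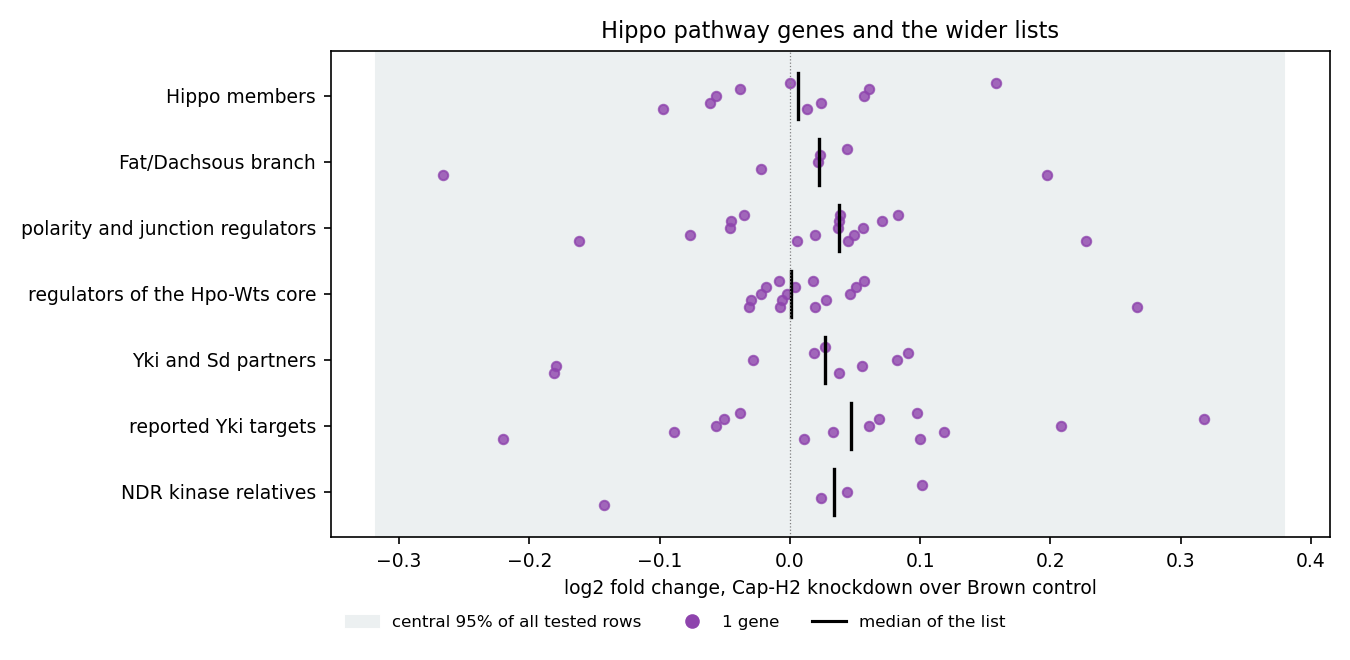
Log2 fold change, knockdown over control (horizontal axis), of the 10 Hippo genes and of each tested gene in the 6 wider lists (rows). Points are genes, black bars list medians and the grey band holds the central 95% of all tested rows, from -0.32 to 0.38; the medians run from 0.00 to 0.05.

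Markers of cell types gave 0 calls in the main limma fit of all 4 libraries, against 0.39% of all tested rows. Among neural markers elav had 564 and 577 normalized reads in the knockdown libraries, against 559 and 531 in the control libraries, and the glial gene moody had 5350 and 5128 in the knockdown libraries, against 5625 and 5294 in the control libraries. The neuroblast list was near the minimum, with sums of 46.9 and 36.5 in the knockdown libraries, against 41.3 and 31.0 in the control libraries, and no row was matched to its defining genes ase and wor. The blood cell gene srp was abundant, with 5928 and 6037 in the knockdown libraries, against 6374 and 6006 in the control libraries. The summed level of the 4 haemocyte markers with a row was 6813 and 6936 in the knockdown libraries, against 7408 and 7025 in the control libraries, and most of it was srp, whose groups overlapped. The glial sum was also lower without overlap, at 8829 and 8803 in the knockdown libraries, against 9173 and 8963 in the control libraries. The neuron sum was higher without overlap, at 2407 and 2432 in the knockdown libraries, against 2333 and 2254 in the control libraries. Of the 6 neuron markers only 4 had a row and 2 were tested, elav and Syx1A, from which most of this sum came. No row was matched to Syt1 or para, and nSyb and brp were below the minimum. The haemocyte and glial sums lay on the same side as hpo and yki, and the neuron sum on the same side as wts and sd. Groups did not overlap in 38.7% of all tested rows, so such matches are common. The neuroblast, wing disc and muscle sums overlapped. Of the 5 glial genes 4 were negative and 1 positive, and only 1 had groups that did not overlap. Of the haemocyte genes Hml, named after its values were seen, stood at -0.44 on the log2 scale (SE 0.11, limma adjusted p = 0.10). It was -0.32 without control library 1 and -0.56 without control library 2. Among the fits of all 4 libraries it passed with the replicate block (limma adjusted p = 0.0033), where 146 of all tested rows passed. It also passed with robust empirical Bayes (limma adjusted p = 0.028), where 59 did. Of the muscle list Act57B, also named after its values were seen, had -0.09 (SE 0.05, limma adjusted p = 0.65). It was -0.03 without control library 1 and -0.16 without control library 2. The part of these markers in the values of hpo, yki, wts and sd was not tested. In bulk RNA, fewer cells of a type and less RNA per cell cannot be told apart.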

How the data were processed

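RNA from 4 libraries of BG3 cells was sequenced, 2 per group. Per the submitters' processing notes fastp, HISAT2 and HTSeq were used with dm6, without their versions, annotation or strand setting. The authors deposited normalized read counts, a signal made by dividing read counts by a size factor per library, and a table of log2 fold changes with p-values. The authors also deposited scores, minus log2 of those p-values, which were not used. Dividing each deposited column by its smallest step gave whole reads for 100% of values within 0.001 reads. The 3 special HTSeq rows held from 11.5% to 13.9% of reads and stayed out of library sizes and tests.

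Symbols, exon lengths and dm6 coordinates came from Ensembl BDGP6.54, in which 8649 rows matched by symbol and 39 by synonym. Two-sided tests came from limma 3.58.1 (R 4.3.3, trended empirical Bayes), with values as log2(normalized count + 1) and rows kept where the 4 libraries averaged 10 or more. This scale understates the change of low genes, such as ft. Residual degrees of freedom were 2 and the prior added 14.4. The script was tested on simulated data. Count models were edgeR 4.0.16 and DESeq2 1.42.0 on the recovered reads. An exact permutation test of 2 against 2 could not reach the threshold and was not used.

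Members and lists were chosen with earlier results of these data known. Named were the 10 genes, the 2 members of each wider list with the highest level per kb, called members, and genes sharing exons with a member. Other genes named for their values are marked so, and cell type markers were named after their values were seen. No promoter or protein sequences were used here.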

Additional observations from a re-analysis of the deposited data

How the results depend on the processing

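All 10 genes stayed without a call under pseudocounts of 0.5 and 5, no minimum, TMM factors, median centring, robust empirical Bayes, quantile normalization, edgeR and the replicate block, as did the 9 genes left by a minimum of 50 and the 4 to which DESeq2 gave an adjusted p. Leaving out each library gave between 0 and 1 called genes, the 1 being kibra without control library 2 (-0.17, limma adjusted p = 0.013). The count over all rows was 30, and 14 with quantile normalization, 59 with robust empirical Bayes and from 41 to 127 with a library left out. With the replicate block it was 146, but the deviations of same-numbered libraries had a correlation of -0.03 over 7690 rows, so the numbers were not shown to pair the libraries. The median of the 10 genes was 0.01, with median centring 0.021, and from -0.0071 to 0.025 with a library left out. The value of mats turned to 0.014 with median centring and 0.0082 with quantile normalization, and that of wts to -0.0017 with quantile normalization. With a library left out the ranges were -0.12 to 0.043 for ex, -0.17 to 0.051 for kibra, -0.042 to 0.068 for sav, -0.11 to 0.11 for mats, 0.0082 to 0.31 for ft and 0.020 to 0.10 for Mer. The cause was not tested. Values of hpo, yki, sd and Mer kept their direction under every alternative run. That of ft, which was not tested at a minimum of 50, kept its direction in the others, though at only 0.0082 without control library 1. For hpo, yki and sd, whose groups did not overlap, leaving out 1 library could not have turned the direction. Reads on ft numbered 32 to 39 per library, which limits what could be seen for it.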
